A study of Mus musculus with 14 samples.

Results

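Small RNAs that PCR panels list under miRNA names, although they are known to match transfer RNA (tRNA), were described in the plasma of mice with osteosarcoma (OS), a bone cancer. They are mmu-miR-720, mmu-miR-1274a, mmu-miR-1937a, mmu-miR-1937b and mmu-miR-1937c. They were chosen by name, as the wells that carry these names in the deposited name list, and make up 5 of the 389 miRNAs named there. They were also chosen with their difference between OS and control mice known from earlier results of these data, so that difference is given as a description, without p-values for the 5, and the count of them past a threshold is not evidence. Plasma RNA was screened by quantitative PCR in 8 GEMM (genetically engineered mouse model) mice with OS and in 6 wild-type control mice, with 1 plasma sample per mouse.

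The OS mice carried Cre recombinase under a Col-α1(I) promoter, active in osteoblasts, and either 1 or both Trp53 alleles flanked by LoxP sites. Mice with a single floxed allele are described as developing localized OS and mice with both as tending to metastatic OS, and the labels do not give which of these a mouse was. Control mice were wild-type littermates, described in the methods as carrying Cre with intact Trp53. Blood was drawn by cardiac puncture into EDTA once a tumor had developed, and plasma, a cell-free fluid with no defining cell type, was taken from it by centrifugation. No source used here gives the age of the single mice. The methods state 14 GEMM mice with OS, and 8 are analysed here.

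Transfer RNAs carry amino acids to the ribosome, and enzymes cut them into shorter fragments, which circulate in blood in complexes and in vesicles. Several entries first catalogued as miRNAs turned out to be such fragments. The name miR-720 was given to a piece of a threonine tRNA, and miR-1274a, as known from human, to the end of a lysine tRNA. The miR-1937 names also match tRNA, and their letters mark closely related sequences, so the 3 assays may read the same molecules and were not treated as separate measurements of the biology. A typical miRNA is cut by Dicer from a hairpin and loaded into Argonaute, whereas a tRNA fragment need not have passed through either.

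Each well gives a quantification cycle, Cq, the cycle at which the amplified product crosses a threshold. Cq lies on a log2 scale and is lower for a more abundant RNA. The normalized level used below is the mean Cq of all retained miRNAs in a mouse minus the Cq of the RNA, and it increases with abundance. All 5 RNAs were measured in all 14 mice and all 5 passed the filter on missing values. Of the named miRNAs, 333 to 373 were measured in OS mice and 341 to 387 in control mice. A Cq has no count behind it, so the error of a value here is the spread over mice, or over paired wells.

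The 5 RNAs were compared with a marker of red blood cell RNA in plasma, the Cq of miR-23a less that of miR-451. miR-451 is the leading miRNA of red blood cells and miR-23a is usually steady in plasma, so the marker rises with red cell RNA. RefSeq sequences (GRCm38.p6) were found for both marker miRNAs and for 4 miRNAs that are named below because their levels varied most like miR-720 or miR-1274a. They are shown to name exactly which RNAs the comparisons rest on. miR-23a lies at chr8:84208563-84208583 and miR-451 at chr11:78073186-78073207, both on the plus strand. Capitals mark the seed, bases 2 to 8, by which a miRNA pairs with its target RNA.
miR-23a-3p: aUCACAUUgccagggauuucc
miR-451a: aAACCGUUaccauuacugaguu
let-7c-5p: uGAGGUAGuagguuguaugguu
miR-191-5p: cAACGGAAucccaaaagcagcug
miR-339-5p: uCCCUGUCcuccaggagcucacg
miR-425-3p: aUCGGGAAugucguguccgcc
These 6 sequences hold 6 different seeds, so none of them shares a seed with another.

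The wells of 1 mouse stood apart from those of the others. In OS replicate 10, wells of the second panel, which holds all 5 RNAs, departed from the group by plate row. With the 5 RNAs left out, the wells of rows C and D, where miR-1274a (C17), miR-720 (D8) and miR-1937c (D18) sit, had a median level 1.14 and 1.12 above the medians of the OS mice. The wells of rows K and L, where miR-1937a (K14) and miR-1937b (L14) sit, lay at -1.57 and -1.83. The rows of that mouse thus spanned 3.45 on the log2 scale, against 0.72 to 2.21 in the other 13 mice. The row medians rest on 5 to 9 wells each. On the first panel, row G with miR-23a lay at 0.15 and row I with miR-451 at -1.31 in the same mouse, and its rows spanned 2.12 against 0.37 to 1.38 in the others. What part this has in the values of OS replicate 10 was not tested. Results that rest on that mouse are given with and without it, except for the ranks, the shares of signal and the spread among mice.

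**Figure D1:**
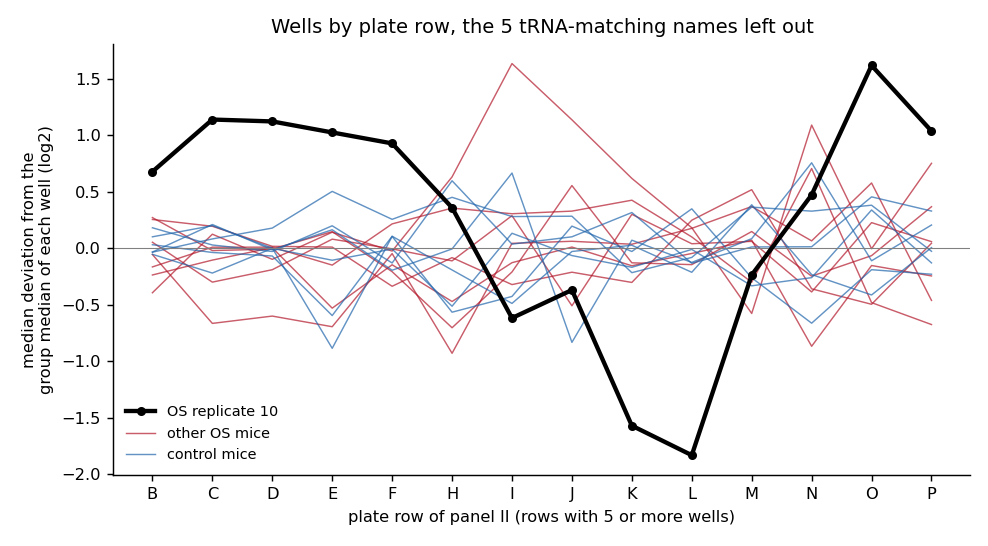
Median deviation of the wells of each plate row of panel II from the median of the mouse's own group, on the log2 scale, with a line per mouse and the 5 tRNA-matching names left out. OS replicate 10, in black, spans 3.45, against 0.72 to 2.21 in the other 13 mice, and is high in rows C and D and low in rows K and L.

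The miR-1937 names were among the strongest signals in plasma. miR-1937c had a Cq of 15.75 at the lowest, 17.69 at the median and 19.07 at the highest in OS mice, against 17.64, 19.47 and 24.91 in control mice. miR-1937b had 16.69, 17.78 and 19.08 in OS mice, against 17.63, 19.30 and 24.69 in control mice. miR-1937a had 18.55, 19.83 and 20.73 in OS mice, against 19.26, 20.98 and 26.55 in control mice. The ranges of the groups overlapped for all 3, and the highest Cq in each case came from control replicate 1.

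miR-1937b and miR-1937c held the 2 lowest Cq of all named miRNAs in 8 of 8 OS mice, against 2 of 6 control mice. With miR-1937a they held the 3 lowest in 5 of 8 OS mice, against 0 of 6 control mice. miR-451 had the lowest Cq in 0 of 8 OS mice, against 4 of 6 control mice. A miR-1937 name was therefore the first to cross the threshold in every OS mouse, and in control mice it was so in 2, with miR-451 first in the other 4.

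miR-720 and miR-1274a crossed the threshold far later. miR-720 had a Cq of 20.98, 26.41 and 32.10 (lowest, median and highest) in OS mice, against 26.17, 30.10 and 35.29 in control mice, and ranked 5th to 182nd of the measured miRNAs in OS mice, against 36th to 267th in control mice. miR-1274a had 26.68, 29.75 and 30.81 in OS mice, against 29.72, 32.08 and 36.05 in control mice, and ranked 44th to 132nd against 117th to 294th. In OS mice miR-1274a thus kept to a narrower span of ranks, above the middle in each mouse, while miR-720 ran from near the top to the middle. If each cycle doubles the product and all assays work equally well, the 5 RNAs together held 82.6% ± 11.0 (SD, n = 8; 60.9 to 95.3) of the summed signal of all named miRNAs in OS mice, against 37.3% ± 26.3 (SD, n = 6; 7.85 to 69.8) in control mice. Neither condition was measured, so these shares describe the PCR signal and not numbers of molecules.

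**Figure D2:**
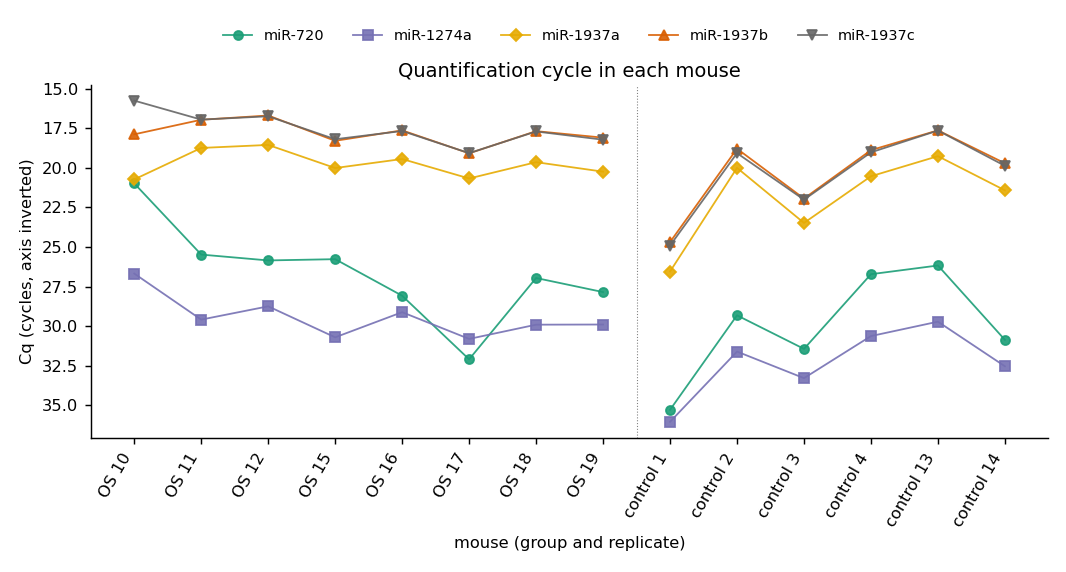
Cq of the 5 RNAs in each mouse, in cycles, with the axis inverted so that more abundant RNAs stand higher; lines join the mice of a group only to guide the eye. miR-1937b and miR-1937c overlie each other in all mice but OS replicate 10, and control replicate 1 is lowest for every RNA.

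The order of the Cq values was nearly fixed from mouse to mouse. Outside OS replicate 10, miR-1937b and miR-1937c had nearly the same Cq. In 13 mice the Cq of miR-1937c minus that of miR-1937b was 0.077 ± 0.105 (SD), and ran from -0.10 to 0.28. The difference between the 2 wells of a reference miRNA, which the panels carry on separate plates, had an SD over the 14 mice of 0.126 (miR-103), 0.217 (miR-423-3p) and 0.215 (miR-191). The SD of the 2 names in the 13 mice was below these. The reference SDs, however, include OS replicate 10 and come from wells on separate plates. Over all 14 mice the SD of the difference between the 2 names was 0.598. In OS replicate 10 the difference was -2.13, with Cq 15.75 for miR-1937c in row D and 17.88 for miR-1937b in row L.

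miR-1937b came before miR-1937a in all 14 mice, with a Cq minus that of miR-1937a of -2.85 to -1.21. miR-720 followed at a distance, and the Cq of miR-1937a minus that of miR-720 ran from -11.43 to -0.25, with a median of -7.47. miR-1274a came last, with a Cq minus that of miR-720 of -1.29 to 5.70 and a median of 2.60. Only in OS replicate 17 did miR-1274a come before miR-720. Cq also depends on the assay, so the order is that of the signals, not of the RNAs.

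In normalized level, miR-1937c was 12.75, 14.72 and 15.97 (lowest, median and highest) in OS mice, against 7.93, 11.91 and 13.09 in control mice. miR-1937b was 12.74, 14.40 and 15.76 in OS mice, against 8.15, 12.13 and 13.23 in control mice. miR-1937a was 10.99, 12.42 and 13.90 in OS mice, against 6.29, 10.58 and 11.58 in control mice. OS mice lay above every control mouse in 7 of 8 for miR-1937b and miR-1937c and in 6 of 8 for miR-1937a, so that in normalized level the groups overlapped only at the low end of the OS mice. The overlap was wider on unscaled Cq. There, 3 of 8 OS mice for miR-1937c, 2 of 8 for miR-1937b and 2 of 8 for miR-1937a had a lower Cq than every control mouse. The mean difference, OS minus control, was 3.32 for miR-1937c (SE 0.72), 2.92 for miR-1937b (SE 0.70) and 2.56 for miR-1937a (SE 0.73), or 9.98, 7.57 and 5.88 fold.

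miR-1274a was 1.01, 2.55 and 5.04 in OS mice, against -3.21, -0.69 and 1.48 in control mice, a mean difference of 3.31 (SE 0.69) or 9.90 fold. Of the 8 OS mice 6 lay above every control mouse. miR-720 was -0.28, 5.91 and 10.74 in OS mice, against -2.45, 1.29 and 5.39 in control mice, a mean difference of 3.77 (SE 1.35) or 13.6 fold. Of the 8 OS mice 5 lay above every control mouse, and OS replicate 17, at -0.28, lay below all control mice but replicate 1. On unscaled Cq, 4 of 8 OS mice had a lower Cq than every control mouse for miR-720, and 4 of 8 for miR-1274a. Over all mice miR-720 had the largest difference of the 5 and the widest error, but without OS replicate 10 its difference was 3.02, against 3.13 for miR-1937c, and with the marker as a covariate it was 2.94, against 3.04.

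**Figure D3:**
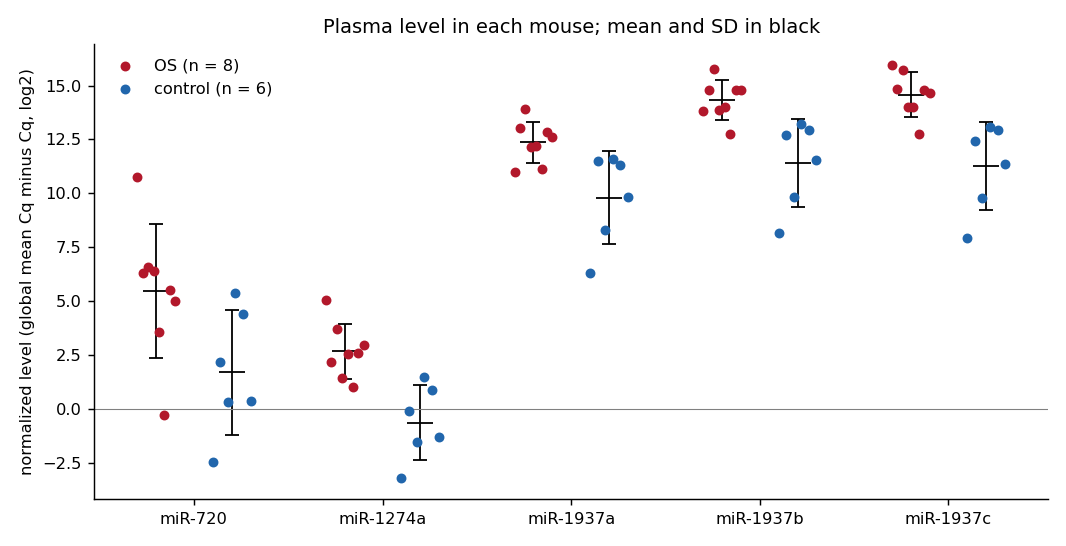
Normalized level, log2, of the 5 RNAs in 8 OS mice (red, left) and 6 control mice (blue, right), with a point per mouse and the mean and SD in black. The OS mean is higher for each RNA, with overlap at the low end, and miR-720 has the widest spread in both groups.

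Of the 5 RNAs, 4 were higher in OS mice at an adjusted p under 0.05 by limma and 0 were lower, and miR-720 did not pass. Over all 388 miRNAs tested, 12.6% passed the same threshold, made up of 6.19% higher and 6.44% lower. Since the 5 were proposed with this contrast known, their count is part of the description and nothing is read from it. It was 3 without OS replicate 11, OS replicate 12, control replicate 3 or control replicate 14, where 7.22%, 7.47%, 5.15% and 5.67% of all 388 passed. It was 5 without OS replicate 17 or control replicate 4, where 17.5% and 10.6% did. With the marker as a covariate, the differences were 2.94 for miR-720, 2.81 for miR-1274a, 2.67 for miR-1937a, 2.90 for miR-1937b and 3.04 for miR-1937c, and 3 of 5 passed, all 3 higher, where 4.38% of 388 passed and 2.84% did so higher. Over the 5 OS and 3 control mice whose markers fell in the range both groups share (4.11 to 6.85), the differences ran from 2.32 for miR-720 to 2.85 for miR-1937c and 0 of 5 passed, where 0.775% of 387 did. The 5 differences were above 0 in both of these comparisons, and fewer of them passed than over all mice.

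OS replicate 10 and control replicate 1 were also left out in turn. Without OS replicate 10 the differences were 3.02 for miR-720, 2.98 for miR-1274a, 2.76 for miR-1937a, 3.00 for miR-1937b and 3.13 for miR-1937c. Without control replicate 1, the lowest mouse for each RNA, they were 2.94, 2.79, 1.85, 2.27 and 2.65 in the same order. In both cases 4 of 5 passed, where 8.51% and 14.2% of 388 did. All 5 RNAs were higher in OS mice either way, and miR-1937a was the one closest to 0 without control replicate 1.

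**Figure D4:**
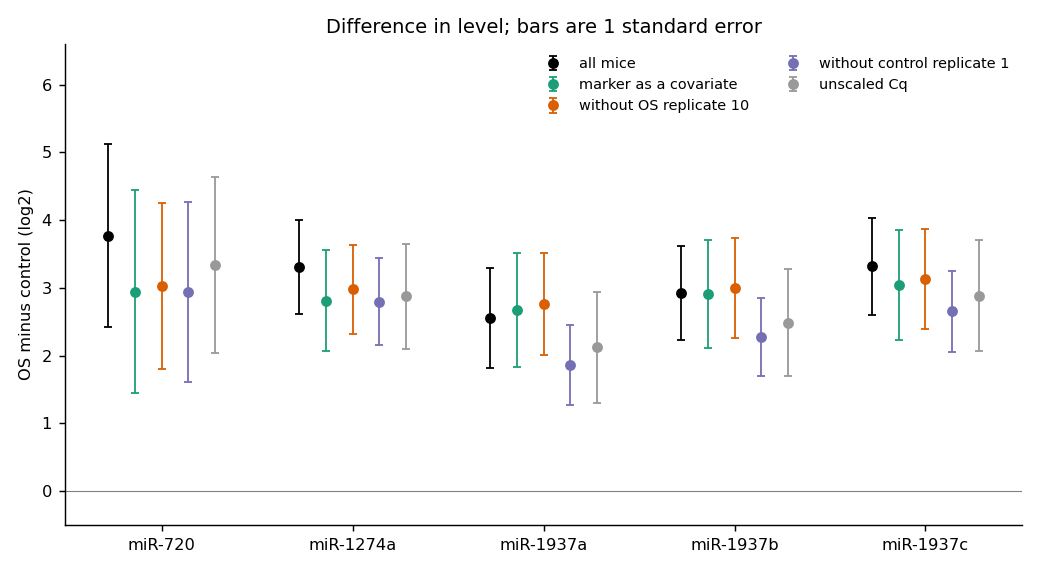
Mean difference in level, OS minus control, on the log2 scale, with 1 standard error, for each RNA over all mice, with the marker as a covariate, without OS replicate 10, without control replicate 1 and on unscaled Cq. All values lie above 0, and the value for miR-1937a without control replicate 1 is the lowest, at 1.85.

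The spread among mice of a group set miR-720 apart. Of the 276 miRNAs measured in every mouse it had the largest SD of level in both groups, 3.10 in OS mice and 2.90 in control mice, against a median SD over the 276 of 0.84 in OS mice and 0.68 in control mice. The other 4 ranked 50th to 110th by SD in OS mice (0.91 to 1.27). In control mice they ranked 5th to 10th (1.72 to 2.14). Thus, over all mice, the miR-1937 names and miR-1274a were among the most variable RNAs in control plasma and closer to the middle in OS plasma. In OS mice the level of miR-720 was highest in OS replicate 10 (10.74) and lowest in OS replicate 17 (-0.28). Control replicate 1 was the lowest control mouse for each of the 5. The SDs were not taken without these mice, and their part in the ranks was not tested.

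Within control mice the 5 RNAs went up and down together. Over the 10 pairs, Pearson's r of the levels was 0.904 to 0.999 with a median of 0.952, and Spearman's rho was 0.943 to 1 (n = 6, exact permutation p = 0.00139 to 0.0125 for r and 0.00278 to 0.0167 for rho, two-sided). The median r over all 37950 pairs of the 276 miRNAs was 0.02. After Benjamini-Hochberg adjustment over those pairs the 10 had an adjusted p of 0.371 to 0.479 for r by the exact permutation test, and 0 of 37950 pairs passed (0.0%), the smallest adjusted p being 0.371. With 6 mice the smallest p the test allowed was 0.00139. Without control replicate 1, r was 0.80 to 0.997 with a median of 0.894.

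Within OS mice r differed between the pairs, and its highest values lay within 2 sets. miR-1937c went with miR-1274a (r = 0.90, rho = 0.83) and with miR-720 (r = 0.89, rho = 0.76), these last with each other (r = 0.79, rho = 0.60), and miR-1937a went with miR-1937b (r = 0.91, rho = 0.98). Between the sets, miR-1937a had an r of 0.03 with miR-1274a, 0.09 with miR-720 and 0.36 with miR-1937c. miR-1937b had 0.42 with miR-1274a, 0.43 with miR-720 and 0.70 with miR-1937c, so the sets were not cleanly apart. Over the 10 pairs, r was 0.03 to 0.91 with a median of 0.56 and rho 0.10 to 0.98 (n = 8, exact permutation p = 0.00171 to 0.940 for r and 0.000397 to 0.840 for rho, two-sided), with an adjusted p of 0.172 to 0.983 over the 37950 pairs for r. None of the 37950 pairs passed (0.0%), the smallest adjusted p being 0.0974, and the median r over all of them was 0.01.

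The 2 sets are those that lie in rows C and D and in rows K and L of the plate, and they rested on OS replicate 10. Without it, r over the 10 pairs was 0.57 to 0.998 with a median of 0.87, and miR-1937b and miR-1937c had the r of 0.998. Without OS replicate 17 instead, which was the lowest OS mouse for all but miR-1937a, r was -0.50 to 0.91 with a median of 0.23. The co-variation in OS mice therefore turned on these 2 mice in opposite ways.

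Other miRNAs varied like miR-720. Over the 14 mice, with each group's mean taken off, the 5 most alike that are not themselves tRNA-matching names were rno-miR-347 (r = 0.96), miR-30b (r = 0.91), let-7c (r = 0.86), miR-1939 (r = 0.85) and miR-191 (r = 0.84), out of 275. miR-1274a took the third place (r = 0.87) and miR-1937c the fifth (r = 0.85), while miR-1937b stood at place 21 and miR-1937a at 36. Without OS replicate 10, miR-1937b moved to place 4 and miR-1937a to 6, and rno-miR-347 (r = 0.95) and miR-30b (r = 0.90) stayed first and second. miR-191 then stood at place 8 (r = 0.81), miR-1939 at 10 (r = 0.81) and let-7c at 11 (r = 0.80). The points share the mice and the scaling, and r is given as a description.

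rno-miR-347, an assay designed on a rat name, had levels of -1.46, 2.73 and 7.34 in OS mice, against -2.79, -1.01 and 2.53 in control mice. Its spread was wide but smaller than that of miR-720, with an SD of 2.64 in OS mice and 2.01 in control mice, against 3.10 and 2.90. miR-30b, of the miR-30 family, had 3.92, 6.02 and 6.86 in OS mice, against 4.75, 6.39 and 6.79 in control mice. miR-191, used by the study as a reference miRNA, had 2.19, 3.65 and 4.54 in OS mice, against 2.00, 3.47 and 3.81 in control mice. let-7c, of the let-7 family that restrains cell growth, had 2.12, 3.75 and 5.59 in OS mice, against 2.59, 4.19 and 4.73 in control mice. The last 3 thus varied with miR-720 over far narrower ranges.

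For miR-1274a the first places went to miR-1937c (r = 0.92) and miR-720 (r = 0.87). The 5 that followed among other names were miR-425* (r = 0.82), miR-709 (r = 0.80), miR-1939 (r = 0.79), rno-miR-347 (r = 0.78) and miR-339-5p (r = 0.76). Without OS replicate 10 the other 4 tRNA-matching names took places 1 to 4, with r of 0.83 to 0.94. miR-425* then stood at place 6 (r = 0.76), miR-709 at 7 (r = 0.76) and miR-1939 at 8 (r = 0.73). Further down were rno-miR-347 at place 10 (r = 0.69) and miR-339-5p at 12 (r = 0.69). miR-451 stood towards the far end of both orders (places 234 and 243 of 275), with r of -0.46 to miR-720 and -0.48 to miR-1274a, and at -0.14 and -0.22 without OS replicate 10.

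The marker was 1.05, 4.34 and 6.85 cycles (lowest, median and highest) in OS mice, against 4.11, 5.94 and 7.21 in control mice, and its lowest value was that of OS replicate 10. Within groups the level of the 5 RNAs changed per cycle of the marker by -0.53 for miR-720 (95% confidence interval -1.40 to 0.35), -0.31 for miR-1274a (-0.75 to 0.12), 0.07 for miR-1937a (-0.42 to 0.56), -0.01 for miR-1937b (-0.48 to 0.45) and -0.18 for miR-1937c (-0.65 to 0.30). None of the 5 passed in a limma fit of group and marker over 386 miRNAs, with an adjusted p of 0.472, 0.374, 0.846, 0.979 and 0.644 in that order. Over all 386, 8.81% passed, 4.66% with a slope below 0 and 4.15% above. No slope was shown for any of the 5, and the intervals leave room for slopes of either sign. Without OS replicate 10 the slope was -0.02 for miR-720, -0.12 for miR-1274a, -0.09 for miR-1937a, -0.08 for miR-1937b and -0.06 for miR-1937c. Without control replicate 1 it was -0.76 for miR-720, -0.46 for miR-1274a (limma, adjusted p = 0.0834), -0.09 for miR-1937a, -0.17 for miR-1937b and -0.35 for miR-1937c.

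In OS mice alone, the level of miR-1274a had an r of -0.67 with the marker (rho = -0.45, n = 8, exact permutation p = 0.0671 for r and 0.267 for rho, two-sided) and miR-1937c one of -0.56 (rho = -0.62, exact permutation p = 0.146 for r and 0.115 for rho). miR-720 had -0.46 (rho = -0.48, exact permutation p = 0.245 for r and 0.243 for rho), miR-1937b -0.10 (rho = -0.02, exact permutation p = 0.818 and 0.977) and miR-1937a 0.13 (rho = 0.05, exact permutation p = 0.747 and 0.935). Adjusted over the 274 miRNAs tested, the p for r by the exact permutation test was 0.211 to 0.890, and 0 of 274 passed (0.0%). Without OS replicates 10 and 18, the 2 farthest from the median marker, r was -0.13 for miR-720, -0.54 for miR-1274a, -0.62 for miR-1937a, -0.58 for miR-1937b and -0.56 for miR-1937c. Without OS replicate 10 alone, r was -0.02 for miR-720, -0.35 for miR-1274a, -0.39 for miR-1937a, -0.33 for miR-1937b and -0.32 for miR-1937c. The value for miR-720 was thus near 0 without that mouse, those for miR-1274a and miR-1937c were smaller in size, and that for miR-1937a changed sign.

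In control mice r with the marker was -0.0001 to 0.09 for the 5 RNAs and rho -0.26 to -0.09 (n = 6, exact permutation p = 0.843 to 1 for r and 0.658 to 0.919 for rho, two-sided), and the adjusted p over 274 miRNAs was 0.934 to 1, with 0 of 274 passing (0.0%). With 6 mice the smallest p that the exact permutation test allowed was 0.00139, which limits what can pass over 274 miRNAs. Nothing is therefore read from that count. Without control replicates 1 and 4, the 2 farthest from the median marker, r was -0.50 to -0.01 over the 4 mice left. Slopes were also compared between groups. The slope in OS mice minus that in control mice was -0.73 (95% confidence interval -2.75 to 1.29) for miR-720 and -0.43 to -0.03 for the others, with an adjusted p of 0.777 to 0.994 in limma over 384 miRNAs, of which 0.0% passed.

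**Figure D5:**
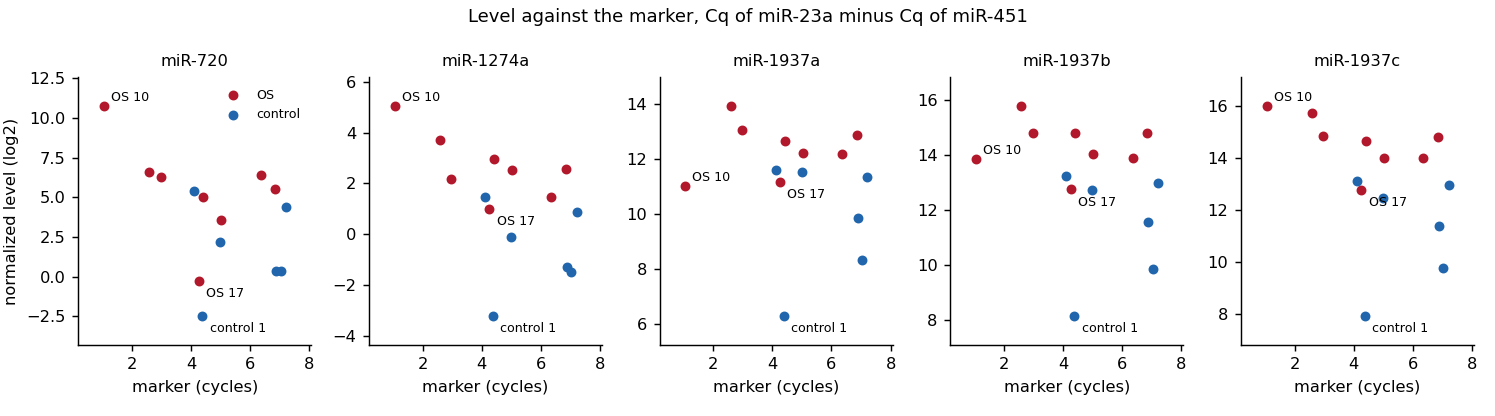
Normalized level, log2, of each RNA against the marker, the Cq of miR-23a less that of miR-451 in cycles, in OS mice (red) and control mice (blue), a point per mouse. OS replicate 10 has the lowest marker, at 1.05, and is highest for miR-720, miR-1274a and miR-1937c but lowest of the OS mice for miR-1937a.

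Lists of miRNAs from blood cells and liver were set beside the 5 RNAs. Over all 388 miRNAs, 6.44% were lower and 6.19% higher in OS mice. Of 5 red blood cell miRNAs, 1 was lower and 0 higher, with a median difference of -0.77. That one was miR-144, which is made from the same primary transcript as miR-451. Its level was 5.21, 7.28 and 8.66 in OS mice, against 8.74, 9.23 and 10.55 in control mice (difference -2.38, SE 0.56, limma, adjusted p = 0.0131). The others did not pass, with differences of -1.43 for miR-451, -0.77 for miR-16, -0.52 for miR-25 and 0.05 for miR-486. The mean level of the list was 6.49 to 8.92 in OS mice, against 8.04 to 9.91 in control mice. Of 6 white blood cell miRNAs, 1 was lower, with a median of -0.35 for the list. It was miR-142-3p, which is made in blood-forming cells (difference -3.57, SE 0.64, limma, adjusted p = 0.00326). The others did not pass, with differences of -1.18 for miR-142-5p, -0.53 for miR-181a, -0.16 for miR-155, 0.02 for miR-150 and 0.08 for miR-146a. The mean level of this list was 1.19 to 2.69 in OS mice, against 1.98 to 3.81 in control mice.

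Of 5 platelet miRNA assays and 3 liver miRNAs, 0 passed in either direction, with median differences of -0.24 and -0.06. The mean level was 5.45 to 6.13 in OS mice, against 5.72 to 6.56 in control mice, for the platelet list and 4.47 to 7.83 in OS mice, against 4.35 to 7.73 in control mice, for the liver list. Over all 388 the median difference was -0.003. All members of these 4 lists were measured in every mouse. Nothing is read from such small counts, and their part in the differences of the 5 RNAs was not tested.

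Members of 3 of the lists had a slope on the marker that passed. miR-144 rose with the marker by 0.54 per cycle (SE 0.11, limma, adjusted p = 0.0236), miR-142-3p by 0.58 (SE 0.14, adjusted p = 0.0261) and miR-142-5p by 0.43 (SE 0.10, adjusted p = 0.0236), while miR-24, counted here with the platelet miRNAs, fell by 0.29 per cycle (SE 0.08, adjusted p = 0.0416). All 4 also passed without OS replicate 10 and without control replicate 1. However, 0 of 386 miRNAs passed without OS replicate 12, without OS replicate 15 or on unscaled Cq. None of the 4 passed without the mice whose marker is over 7, or in the marker range that both groups share. miR-142-3p did not pass without OS replicate 18, and miR-24 did not pass without OS replicates 11, 18 or 19, without control replicates 2, 4, 13 or 14, or when scaled to the reference miRNAs. The marker is itself made from miR-23a and miR-451. miR-144 shares a transcript with miR-451, and miR-24 a gene cluster with miR-23a. The slopes of miR-144 and miR-24 are thus in part built into the marker, and nothing is read from them about red blood cells or platelets. None of the 3 liver miRNAs passed, miR-122, the main miRNA of liver cells, having a slope of -0.14 (SE 0.17, adjusted p = 0.614). The median slope was 0.25 for the red blood cell list without miR-451, 0.31 for the white blood cell list, -0.10 for the platelet list and -0.18 for the 5 RNAs, beside -0.003 over all 386.

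The 5 RNAs carry high numbers, and miRNA numbers were given in the order of cataloguing. Of the other 42 names numbered 700 or above, 10 were higher in OS mice and 0 lower, beside 6.19% higher of all 388, with a median difference of 0.69. The number higher was 9 of 42 without OS replicate 10 (17 of 388 over all miRNAs). It was 7 without control replicate 3 or without control replicate 14 (13 of 388 each) and 6 with the marker as a covariate (11 of 388). By the methods' t-test it was 6 (10 of 388), on unscaled Cq 2 (4 of 388) and in the shared marker range 2 of 41 (2 of 387). The largest differences were those of miR-2145 (3.52, SE 0.77), miR-1959 (3.51, SE 0.54), miR-1939 (2.76, SE 0.60) and miR-2137 (2.62, SE 0.77), each past the threshold (limma, adjusted p = 0.00945, 0.00114, 0.00913 and 0.0331), with miR-1959 measured in 5 of the 6 control mice. miR-2145 had levels of 7.20, 9.21 and 10.43 in OS mice, against 2.86, 5.58 and 7.95 in control mice. The lowest were those of miR-1949 (-1.09), miR-1961 (-0.70), miR-802 (-0.52) and miR-872 (-0.38), with an adjusted p of 0.0649 to 0.704. Higher levels in OS mice were thus also found among late names other than the 5, and 32 of the 42 did not pass. This list, too, was set with earlier results known.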

How the data were processed

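Per the methods, the authors measured RNA from plasma on Exiqon mouse panels I and II and read Cq values on a Roche LightCycler. The deposited Cq values lie on a log2 scale and come from before normalization; no source used here says whether outliers had been removed or plates calibrated by then. The authors' table of their own comparison, with fold changes and p-values, was read only for the names of the wells, which gave 389 miRNAs in 392 of 768 wells. Wells of the 3 miRNAs with 2 wells were averaged.

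After the methods, any Cq over 37 counted as missing, a miRNA stayed where fewer than 75% of its values were missing (388 kept, 5.84% of values missing), and each mouse was scaled to its mean Cq. For this mean only, a missing value took its group's mean, or Cq 38. limma 3.58.1 in R 4.3.3 (lmFit, eBayes, two-sided, Benjamini-Hochberg over all miRNAs) replaced the methods' t-test. Correlations used exact permutation over all pairings, 40320 for OS mice and 720 for control mice, in Python 3.11.15 with numpy 2.4.6. Each p-value rests on the variation among these mice and does not measure it. Marker correlations came to 10 in all, and correlations among the 5 RNAs to 10 in each group. Simulated data with set changes were used to test the code.

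The 5 RNAs, the lists and the tests were chosen with earlier results of these data known. The miRNAs named are the 5, the marker pair, the reference miRNAs of the methods (miR-423-3p, miR-103, miR-191), the 5 most like miR-720 and miR-1274a, the 4 largest and 4 smallest differences among late names, and up to 3 per list with the steepest slope. Alternatives were other scalings, Cq limits and treatments of missing values, other tests, the marker as a covariate or a limit, and leaving out each mouse. The plate rows and the results without OS replicates 10 and 17 or control replicate 1 were looked at after the data were seen, as were correlations of pairs without them.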

Additional observations from a re-analysis of the deposited data

Results flagged for a closer look

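Cq of miR-1937c minus Cq of miR-1937b was -2.13 in OS replicate 10, against -0.10 to 0.13 in the other 7 OS mice and 0.01 to 0.28 in the 6 control mice. It was set apart because the gap between this mouse and the nearest other OS mouse took up more of the group's whole range than Dixon's critical value of 0.526 for 8 samples allows. It was 1 of 14 such tests made here, and chance alone sets off about 1 in 20. The wells sit in rows D and L of the second panel, and in the same mouse the other wells of these rows lay at 1.12 and -1.83 from the medians of the OS mice, as given above.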

How the results depend on the processing

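Control mice were littermates, but the labels do not say which mice share a litter, so no paired analysis was possible and litter was not modelled. All 5 differences between OS and control mice stayed above 0 under each of the alternatives run, and the median of the 5 was 2.66 to 3.45 (all mice 3.31) and, leaving out each mouse in turn, 2.65 to 3.69. The number of the 5 that passed was 4 with all mice, 3 with each panel scaled to its own mean, with the marker as a covariate or without the mice whose marker is over 7 (miR-1937a lost each time), 2 on unscaled Cq, 2 by the methods' t-test and 0 in the shared marker range, which holds 8 mice. It was 3 to 5 when each mouse was left out, with 3 without OS replicates 11 or 12 or control replicates 3 or 14 and 5 without OS replicate 17 or control replicate 4. Unscaled Cq moved the median difference of all miRNAs to -0.45 and scaling to the median moved it to 0.14.

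Over all miRNAs 49 passed (24 higher, 25 lower), against 21 (4 and 17) on unscaled Cq, 33 (22 and 11) scaled to the reference miRNAs, 42 (28 and 14) scaled to the median, 29 with a Cq limit of 35 over 336 miRNAs, 24 by the methods' t-test, 17 with the marker as a covariate and 20 (without control replicate 3) to 73 (without OS replicate 15) with each mouse left out. Fewer passed by over 1.5 times also without OS replicates 11 (28) and 12 (29) and without control replicates 13 (31) and 14 (22). For the slope on the marker, 34 of 386 passed, against 0 on unscaled Cq and without OS replicates 12 or 15, 12 without OS replicate 18, and 13, 21 and 11 without control replicates 4, 13 and 14. Without the 2 control mice whose marker is over 7, the difference of miR-144 did not pass, 6 of the 42 late names did, and 6 slopes did. In the shared marker range the differences of miR-144 and miR-142-3p did not pass.

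The slope on the marker passed for 0 of 5 under all alternatives run. That of miR-1937b, near 0 with all mice, was 0.0952 scaled to the reference miRNAs, 0.0531 with each panel scaled to its own mean, 0.0462 unscaled and 0.0041 with a Cq limit of 35. In the shared marker range it was 0.35, that of miR-720 was 1.35, that of miR-1274a 0.0095 and that of miR-1937c 0.37. Leaving out each mouse gave -0.0916 to 0.187 for miR-1937a, -0.17 to 0.10 for miR-1937b, -0.35 to -0.06 for miR-1937c, -0.46 to -0.12 for miR-1274a and -0.76 (without control replicate 1) to -0.02 (without OS replicate 10) for miR-720.

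The r of miR-1937b with the marker in OS mice was 0.335 scaled to the reference miRNAs and 0.0496 with each panel scaled separately, and that of miR-1937a in OS mice was -0.0237 unscaled. In control mice r was -0.0244 for miR-1937a and -0.03 for miR-1937b scaled to the reference miRNAs, 0.0249 for miR-720 and 0.0416 for miR-1274a with the panels scaled separately, 0.17 and 0.26 for these unscaled, and 0.0003 for miR-720 with the 5 RNAs left out of the mean. Leaving out each mouse gave, in OS mice, -0.67 to -0.02 for miR-720, -0.78 to -0.35 for miR-1274a, -0.39 to 0.48 for miR-1937a, -0.33 to 0.15 for miR-1937b and -0.79 to -0.32 for miR-1937c, and in control mice -0.53 to 0.55, -0.59 to 0.52, -0.61 to 0.39, -0.58 to 0.42 and -0.54 to 0.46 in the same order. With a Cq limit of 35, miR-720 and miR-1274a are missing in control replicate 1 and have no such r. The median r of the 10 pairs was 0.23 to 0.87 in OS mice and 0.894 to 0.976 in control mice with each mouse left out, and 0.996 in control mice with a Cq limit of 35. The cause of these changes was not tested.

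With 8 and 6 mice and 1 sample each, intervals are wide, and Cq values carry no depth.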
